A study of Mus musculus with 6 samples.

Results

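Axon guidance ligands and receptors were followed in bulk RNA from the brains of mice with lowered Top2b. A gene was taken as a member when its symbol belonged to the semaphorins (Sema3 to Sema7), plexins, neuropilins, Eph receptors, ephrins, Slits, Robos, netrins (Ntn) or the netrin receptors Unc5 and Dcc, and when its mean normalised count over the 6 libraries was at least 10. These criteria gave 67 of the 17391 genes with a mean at that level. Only Epha1 (mean 7.76) and Efna4 (mean 4.89) had a fitting symbol and a lower mean. The symbols and the filter use no difference between samples, though these families were picked with earlier results of the same data known. The members nearest above the limit were Epha2 at 47.9, Ntn5 at 50.5 and Efna1 at 62.2. In the other families the lowest member averaged from 99.8 (Sema3b) to 671 (Slit3), well clear of it.

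Polyadenylated RNA of the left brain was sequenced in 6 males, 3 of them wild-type and 3 with a low-expressing Top2b allele on both chromosomes, called Top2b-L in the labels. Top2b encodes topoisomerase IIβ, which relaxes DNA ahead of transcription in neurons. In that allele CRISPR/Cas9 had put an auxin-inducible degron tag at the 5′ end of the coding sequence. Neither group received a drug. The labels give the age as 10 weeks in one place and 3.5 months in another. One library of each genotype, replicate 3 in both, has a name beginning with N22, and the Top2b-low one of that pair ends in dNdN where the others end in Homo. The labels do not explain either name, so whether all 3 Top2b-low mice carry the same allele cannot be told from them.

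Guidance cues are secreted or membrane-bound proteins that attract or repel growing axons, and their receptors turn contact with the cue into changes of the growth cone's actin and microtubules. Semaphorins act through plexins, with neuropilins as co-receptors for most class 3 semaphorins. Ephrins act on Eph receptor tyrosine kinases and can signal back into the cell that carries them. Slits act through Robo receptors, and netrins through Dcc, which mediates attraction, and the Unc5 proteins, which mediate repulsion. In the adult brain many of these genes stay expressed, where they take part in synapse formation, spine shape, myelination and blood vessel maintenance.

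Library totals ran from 16963067 to 35246703 recovered reads, the highest being the 2 libraries named N22. Top2b itself (ENSMUSG00000017485, chromosome 14) stood at 3160.4, 3014 and 2485 in the wild-type mice (replicates 1 to 3, the order used throughout) and at 2152, 2314 and 1965 in the Top2b-low mice, 25.7% lower on average (limma log2 difference −0.42, SE 0.11, unadjusted p = 0.00629, adjusted p = 0.99997). Markers of cerebellum and hindbrain were low in the N22 libraries. The summed count of 10 cerebellar granule cell markers was 4349.6 to 4538 in them and 23395 to 28961 in the other 4, and that of 8 hindbrain markers 28.4 to 84.6 against 743 to 1328, with 6 of the 8 at 0 in at least 1 library. All 9 tested hypothalamic markers were lower in Top2b-low libraries (median log2 difference −2.45, summed count 1289.9 to 2226 in the wild-type and 104 to 1209.6 in the Top2b-low libraries), as were all 7 tested hindbrain markers (median −0.81, summed count 84.6 to 1328 and 28.4 to 866). For the hypothalamic markers the median was −1.91 outside N22 and −4.02 in the N22 pair, and all 9 had the same sign in both. For the hindbrain markers the median was −0.90 outside N22 and 0 in the N22 pair, and 1 of the 7 had the same sign in both. All 10 cortical and hippocampal excitatory neuron markers were higher in Top2b-low libraries (median 0.22, summed count 68304 to 90328 and 81437 to 107949). At an unadjusted limma p under 0.05 stood 8 of the 9 hypothalamic, 0 of the 7 hindbrain and 0 of the 10 excitatory neuron markers (background 1.51%). Groups did not overlap in 6 of the 9 and 0 of the 7, on the lower side (background 3.04%). Of the 10, 1 was higher without overlap (background 2.7%). None of these markers passed limma's test for genotype after adjustment, nor did any of the 17391 tested genes. The part of tissue content in the results below was not tested. In tissue RNA, fewer cells of a type and less RNA per cell cannot be told apart.

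The guidance genes covered a wide range of transcript levels. Per kilobase of annotated exon, the highest mean level was that of Sema7a, a semaphorin anchored to the membrane by a lipid, at 1195 normalised counts per kb. It was followed by the transmembrane ephrin Efnb3 (740.0), the transmembrane semaphorin Sema6b (515), the receptor Epha4 (502) and Ephb6, an Eph receptor without kinase activity (472). At the other end stood Epha2 (10.3), Sema3b (20.9), Ntn5 (22.8) and Epha3 (24.7). The median was 179 for the 9 plexins, 38.6 for the 7 secreted class 3 semaphorins and 56.4 for the 4 netrins, against 93.2 for all tested genes. Levels often differed widely within a family: Efnb3 was far above Efnb1 (77.1), and Unc5a (352) above Dcc (43.9). Those of Nrp1 (59.3) and Nrp2 (84.5) were closer. These levels divide by the union of all annotated exons, so a gene with many annotated exons can appear lower than it would by its main transcript.

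**Figure D1:**
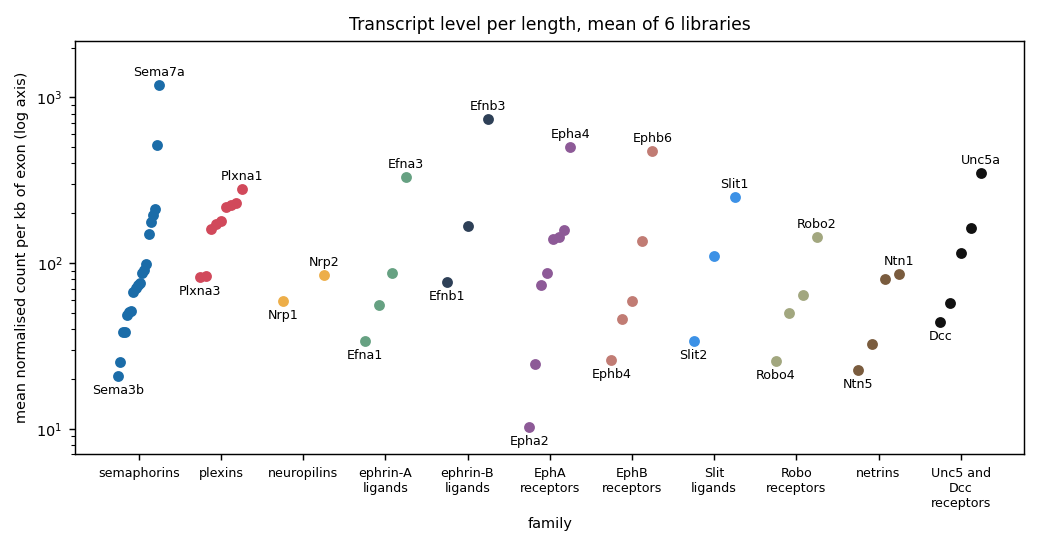
Mean normalised count per kb of exon over the 6 libraries (log axis) for each of the 67 genes, 1 point per gene, arranged by family with the highest and lowest member named. Sema7a and Efnb3 are the highest points and Epha2 the lowest.

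No guidance gene differed between genotypes past the threshold. None of the 67 passed limma's test over all genes, in either direction, with a smallest adjusted p of 0.99997. The background was 0 of 17391 genes called (0.0%), and 0 were called by edgeR or DESeq2 from the whole reads behind the normalised counts. At an unadjusted p under 0.05 limma left 3 members, Plxnd1, Plxnb3 and Robo2, or 4.48% against 1.51% of all tested genes, edgeR left 3 (background 1.44%) and DESeq2 3 (background 0.966%). Of the 67, 31 were on the higher side in Top2b-low mice and 36 on the lower side, with a median log2 difference of −0.013 beside −0.0021 for all tested genes. The estimates ran from −0.31 for Epha2 to 0.33 for Robo3, and the widest intervals were those of Ntn1 and Epha2. The 95% interval stayed within 0.5 log2 units of 0 on both sides for 49 members.

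The plot of genotype differences shows these estimates by family. Ligands and receptors were both centred near 0: the median was −0.019 over 34 ligands and 0.0082 over 33 receptors. By family it was lowest for Unc5 and Dcc (−0.082) and highest for the Robo receptors (0.14), families of 5 and 4 genes. In 2 members, Plxnd1 and Robo2, all 3 Top2b-low counts exceeded all 3 wild-type counts (background 2.7% of genes), and in 4, Plxnb3, Sema3g, Slit2 and Unc5d, all 3 were lower (background 3.04%). For each of these 6 the two-sided exact permutation test gave p = 0.1, the smallest that 3 against 3 allows.

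**Figure D2:**
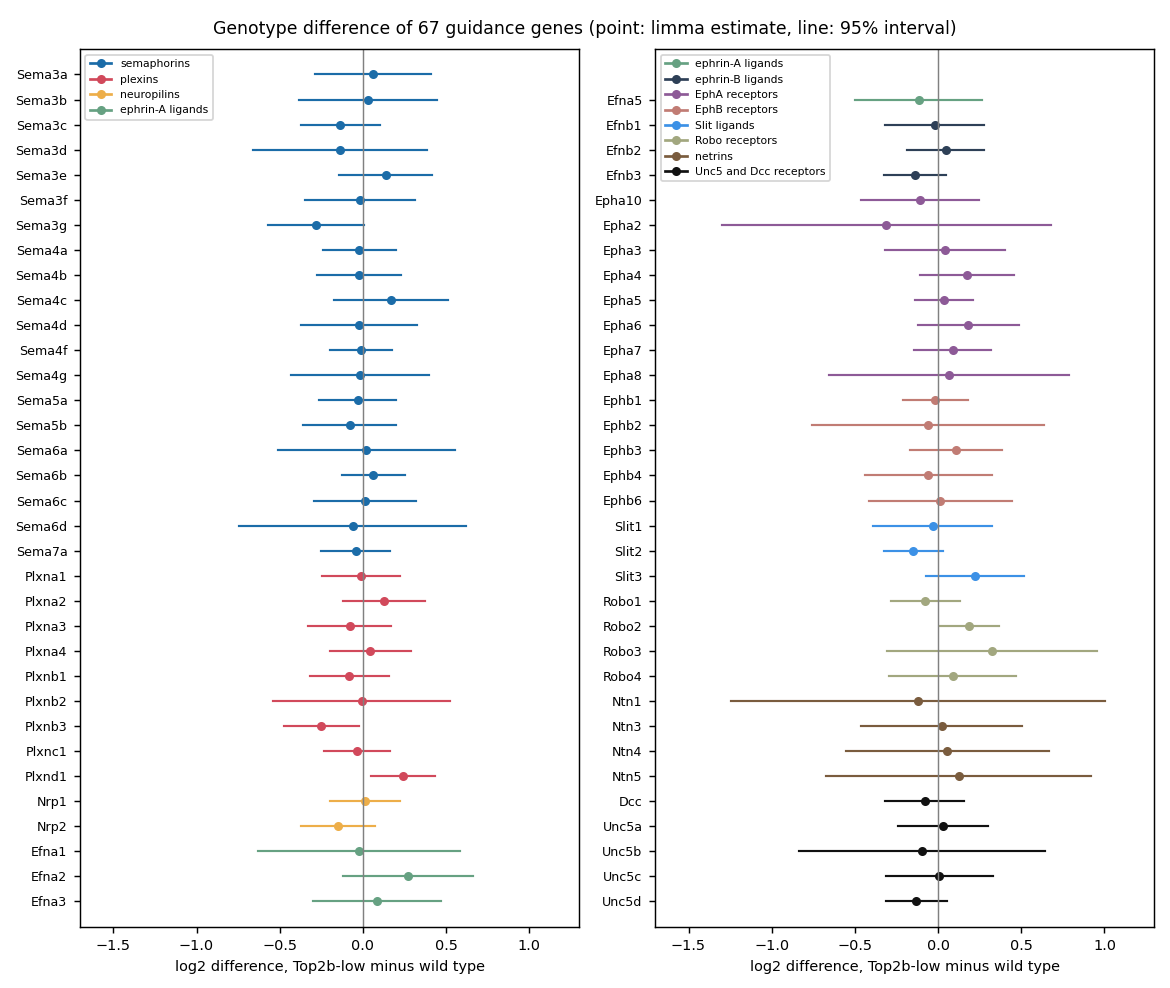
Log2 difference between Top2b-low and wild-type libraries (x axis) for each of the 67 genes (y axis), as limma's estimate (point) with its 95% interval (line, n = 3 against 3), coloured by family. All estimates lie between −0.31 and 0.33, and none passed the test after adjustment.

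All 20 semaphorin genes of the table were members. None passed the test, 7 were on the higher and 13 on the lower side, and the median was −0.02. Sema3g (ENSMUSG00000021904, chromosome 14), a secreted class 3 semaphorin made by arterial endothelium, stood at 202, 190.5 and 184 in the wild-type mice and at 176, 149 and 149.7 in the Top2b-low mice. The groups did not overlap, and the means were 192 ± 8.83 and 158 ± 15.3 (SD, n = 3 each), 17.6% lower (log2 difference −0.28, SE 0.12, limma unadjusted p = 0.0549). Of the 10 endothelial and mural cell markers 7 were on the higher and 3 on the lower side (median 0.079). Their summed count was 6351 to 8267 in the wild-type and 6569.9 to 8131 in the Top2b-low libraries. The sign was the same outside N22 and in the N22 pair for 4 of the 10, and 0 reached an unadjusted limma p under 0.05. The part of these markers in the level of Sema3g was not tested. The secreted Sema3c (ENSMUSG00000028780, chromosome 5) counted 600.0, 724 and 624 against 567, 599.7 and 602, and the ranges overlapped (log2 difference −0.13, SE 0.10, unadjusted p = 0.219).

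Sema3a, the classical repellent of sensory and cortical axons, averaged 521 ± 84.3 and 541 ± 66.7 (SD, n = 3 each) in wild type and Top2b-low, and Sema3e, which binds Plxnd1 directly, 805 ± 124 and 878 ± 13.2. Their differences lay within the spread between replicates, the Top2b-low values of both genes lying between wild-type values. Among the transmembrane class 4, 5 and 6 semaphorins, 12 genes, the log2 differences ran from −0.08 for Sema5b to 0.17 for Sema4c. Sema4c stood at 386, 323 and 280.2 in the wild-type mice and at 399, 381 and 327 in the Top2b-low mice, groups that overlapped (unadjusted p = 0.288). Sema6b, next to Sema7a in level per length within its family, counted 1903, 1930.1 and 2161 against 2087, 2007 and 2162, with a difference of 0.063 (SE 0.081) and the N22 library the highest of its group in both genotypes. Sema3d was the secreted semaphorin whose difference moved most between sets of libraries, at 227, 303 and 164 against 234, 195 and 186, which is −0.29 outside N22 and 0.18 in the N22 pair. The abundant Sema7a (ENSMUSG00000038264, chromosome 9) counted 4233, 4141 and 3627 against 3828, 4143 and 3669.8, with overlapping groups and a log2 difference of −0.042 (SE 0.089). Its 95% interval of −0.25 to 0.17 is among the narrower ones, and its lowest values in both genotypes were in the N22 libraries.

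The 9 plexins included the member with the smallest p of all. Plxnd1 (ENSMUSG00000030123, chromosome 6), a receptor of endothelial cells and of striatal and cortical neurons, stood at 1425, 1468 and 1638 in the wild-type mice and at 1846, 1744 and 1757 in the Top2b-low mice. Every Top2b-low library was above every wild-type library, and the highest wild-type value was that of the N22 library. The means were 1510.1 ± 113 and 1782 ± 55.2 (SD, n = 3 each), with a log2 difference of 0.24 (SE 0.083, limma unadjusted p = 0.0209, adjusted p = 0.99997). Outside N22 the difference was 0.31, and 0.10 in the N22 pair. On the higher side, as Plxnd1 was, stood 7 of the 10 endothelial markers named above and 7 of 8 striatal markers. The striatal median was 0.19, with a summed count of 12862 to 15962 in the wild-type and 13799 to 17419 in the Top2b-low libraries. The part of either list in the level of Plxnd1 was not tested.

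Plxnb3 (ENSMUSG00000031385, X chromosome), a semaphorin receptor found mainly in oligodendrocytes, was on the lower side. It stood at 607, 579 and 571 in the wild-type mice and at 476, 541 and 463 in the Top2b-low mice, without overlap, and averaged 586 ± 19.0 and 494 ± 41.9 (SD, n = 3 each), 15.7% lower (log2 difference −0.25, SE 0.10, unadjusted p = 0.0344). The log2 difference was −0.22 outside N22 and −0.30 in the N22 pair, a direction that groups without overlap fix in advance. Of the 10 oligodendrocyte markers 9 were also lower, by a median of −0.10, with a summed count of 121908 to 137953 in the wild-type and 115439 to 127778 in the Top2b-low libraries and none at 0. Their part in the level of Plxnb3 was not tested. Sema4d, a ligand of plexin-B receptors made by oligodendrocytes, counted 1483, 1490.2 and 1153 against 1355, 1566 and 1140.0, groups that overlapped, with a log2 difference of −0.025.

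The remaining plexins lay close to 0. Plxna2 (ENSMUSG00000026640, chromosome 1), the plexin with the highest mean count, averaged 2944 ± 308 and 3210.2 ± 275 (log2 difference 0.13, SE 0.11), while Plxna1 (−0.013), Plxna4 (0.044), Plxnb2 (−0.0082) and Plxnc1 (−0.038), the receptor of Sema7a, were nearer still. Plxnb1, a receptor of Sema4d, counted 2313, 2366 and 2173 against 2307, 2321 and 1876 (−0.081, SE 0.10), and Plxna3 640.1, 624 and 745 against 688, 612 and 599 (−0.08, SE 0.11), both with overlapping groups. The co-receptor Nrp2 (ENSMUSG00000025969, chromosome 1), which pairs with plexins for Sema3c and Sema3f, stood at 1042, 1058 and 1053 in the wild-type mice and at 1059, 931 and 863 in the Top2b-low mice. Its 3 wild-type values lay close together, Top2b-low replicate 1 was level with them and replicates 2 and 3 were below (log2 difference −0.15, SE 0.10, unadjusted p = 0.16). Nrp1, the co-receptor for Sema3a, had a log2 difference of 0.014 (SE 0.09).

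**Figure D3:**
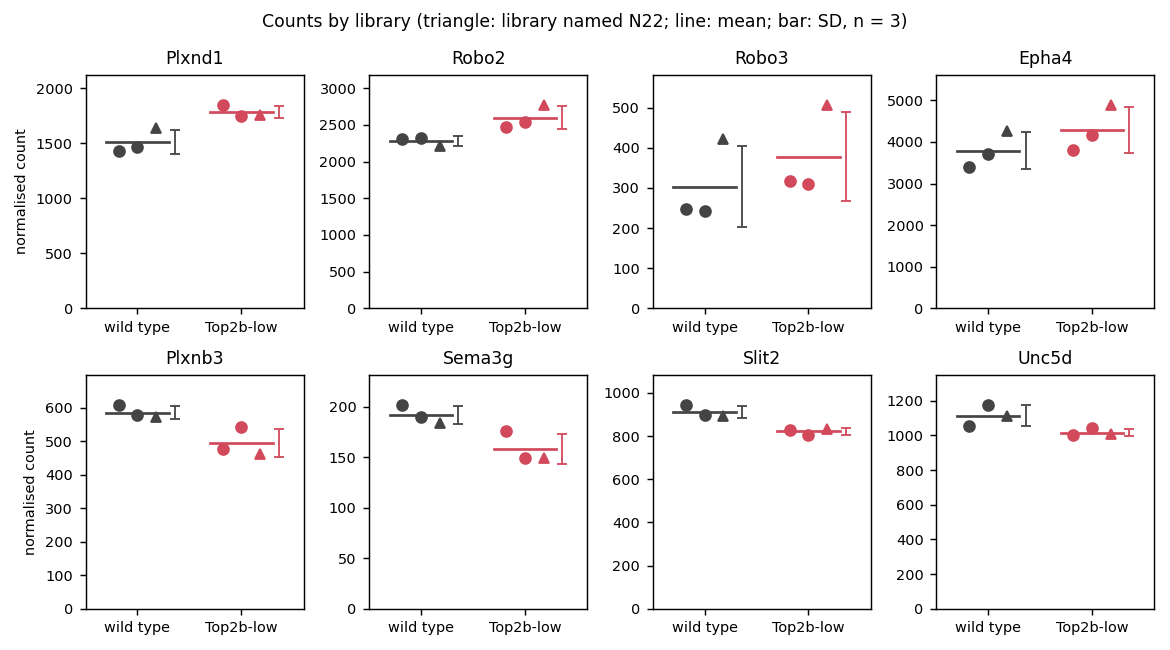
Normalised count (y axis, from 0) of 8 guidance genes in each wild-type and Top2b-low library, with the mean (line) and SD (bar, n = 3) of each group; triangles are the libraries named N22. Plxnd1 and Robo2 are higher without overlap, Plxnb3, Sema3g, Slit2 and Unc5d lower without overlap, and Robo3 and Epha4 overlap, with the N22 library the highest of its group in both genotypes.

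Among the 8 EphA receptors, 6 were on the higher side and 2 on the lower, with a median of 0.052 and none past the test. Epha4 (ENSMUSG00000026235, chromosome 1), a receptor for both ephrin classes that limits spine growth and corticospinal crossing, stood at 3395, 3719.8 and 4261 in the wild-type mice and at 3813, 4160.3 and 4886 in the Top2b-low mice. Outside N22 both Top2b-low libraries were above both wild-type ones, and the N22 library was the highest of its group in each genotype. Over all 6 libraries the groups overlapped, with a log2 difference of 0.18 (SE 0.12, unadjusted p = 0.188), and with a term for the N22 name the unadjusted p was 0.0148 and the adjusted p 0.719. Epha6 averaged 435 ± 69.2 and 490.0 ± 20.8 (SD, n = 3 each) in the 2 genotypes. Wild type replicates 1 and 3, at 372 and 425, lay below all 3 Top2b-low values, and replicate 2, at 509, lay above them. Epha2, the lowest member by count and a receptor mostly of epithelia, had the most negative estimate, yet its counts of 63.2, 68.9 and 28.4 against 59.1, 42.5 and 25.4 overlapped and its 95% interval ran from −1.30 to 0.68. Both N22 libraries held its lowest values. Epha5 and Epha7, which shape topographic maps together with Efna5, had log2 differences of 0.035 (SE 0.075) and 0.087 (SE 0.10).

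The 5 EphB receptors stayed within −0.06 (Ephb2) and 0.11 (Ephb3), and their median was −0.016. Ephb1 and Ephb2, which act at excitatory synapses, had differences of −0.016 (SE 0.085) and −0.06 (SE 0.30), the larger error of Ephb2 coming with its low counts in both N22 libraries (384.7 and 374, against 657 or more elsewhere). Ephb3 counted 378, 349.7 and 402 against 373, 463 and 386, the high value in Top2b-low replicate 2 standing alone, and Ephb4, the receptor that marks veins, 131, 137 and 101 against 123.1, 122.6 and 106. Both genes overlapped between genotypes.

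Of the 7 ephrin ligands 3 were on the higher side and 4 on the lower, and none passed the test. Among those attached by a lipid anchor, Efna2 averaged 109 ± 18.7 and 130.4 ± 12.5 normalised counts (SD, n = 3 each), a log2 difference of 0.27 with an SE of 0.17 and overlapping groups. Efna5 averaged 369 ± 75.0 and 337 ± 34.0 (−0.12, SE 0.16), and its highest value, 451, was in wild type replicate 2. Efna3 counted 685, 734 and 922 against 724, 751 and 1015, where the N22 library was the highest of each group, and 14.1% of its annotated exon bases are shared with Gm15998 on the opposite strand. The low Efna1, expressed in vessels, counted 64.4, 51.4 and 70.4 against 45.5, 83.8 and 58.0, with a Top2b-low library as both the lowest and the highest value. Efnb3 (ENSMUSG00000003934, chromosome 11), the midline ephrin-B that repels corticospinal axons through Epha4, stood at 2417, 2349.9 and 2643 in the wild-type mice and at 2358, 2183 and 2181 in the Top2b-low mice. A single Top2b-low value, replicate 1, lay above the lowest wild-type value, and the log2 difference was −0.14 (SE 0.079, unadjusted p = 0.119). The other ephrin-B ligands, Efnb1 and the arterial and neuronal Efnb2, differed by −0.02 and 0.047.

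The Slit and Robo genes held opposite signs within each family. Slit2 (ENSMUSG00000031558, chromosome 5), a secreted repellent, stood at 943, 897 and 894 in the wild-type mice and at 827, 805 and 832 in the Top2b-low mice. All 3 Top2b-low values were lower, the gap between groups being 894 to 832, and the means of 911 ± 27.1 and 821 ± 14.6 (SD, n = 3 each) differed by −0.15 on the log2 scale (SE 0.076, unadjusted p = 0.0871). Slit3 was on the other side, at 516, 684 and 664 against 754, 724 and 683, where wild type replicate 1 was the lowest value and 1 Top2b-low library lay below the highest wild-type library (log2 difference 0.22, SE 0.13). Slit1, the mainly neuronal Slit and the highest of the 3 in mean count, counted 1200.0, 1527 and 1823 against 1445, 1361 and 1590.3 (−0.032, SE 0.15).

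Robo2 (ENSMUSG00000052516, chromosome 16), a Slit receptor that also takes part in synapse formation, stood at 2303, 2325 and 2205 in the wild-type mice and at 2468, 2543 and 2769 in the Top2b-low mice, without overlap. Its means were 2277 ± 64.0 and 2594 ± 156 (SD, n = 3 each), 13.9% higher, with a log2 difference of 0.19 (SE 0.076, limma unadjusted p = 0.0417). The gap was wider in the N22 pair (0.33) than outside it (0.11), and the interaction term did not pass (unadjusted p = 0.0972, limma adjusted p = 0.997). Robo3 (ENSMUSG00000032128, chromosome 9), the divergent Robo that lets commissural axons cross the midline, counted 247, 243 and 421 against 317, 309.6 and 506. Within each set of libraries Robo3 was higher in Top2b-low mice, by 0.36 outside N22 and 0.27 in the N22 pair, yet the N22 libraries were so much higher that the groups overlapped. Its unadjusted p was 0.266 without and 0.00271 with a term for the N22 name, and the adjusted p with that term was 0.568. Robo1 (−0.077, SE 0.089) and the endothelial Robo4 (0.088, SE 0.16) overlapped between genotypes.

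No netrin or netrin receptor passed the test, and the netrins carried some of the largest errors. Ntn1 (ENSMUSG00000020902, chromosome 11), the secreted attractant for commissural axons, stood at 659.5, 615 and 332 in the wild-type mice and at 726, 668 and 216 in the Top2b-low mice. The N22 library was the lowest of its group in both genotypes, which left a log2 difference of −0.12 with an SE of 0.48. The sign itself turned with the libraries used, 0.13 outside N22 and −0.62 in the N22 pair. Ntn4, a netrin of vascular basement membranes, averaged 292 ± 63.0 and 308 ± 89.3 (SD, n = 3 each), and Ntn5, a low gene with 50.5 counts on average, 47.9 ± 15.5 and 53.0 ± 19.9. 23.4% of the annotated exon bases of Ntn5 are shared with Sec1 on the opposite strand, and since the use of strand in the authors' counting is not given in the sources used here, the value of Ntn5 is uncertain. Ntn3 shares 1.74% of its exon bases with the far more abundant Tbc1d24 on the same strand, which no use of strand would separate, so its value is uncertain too.

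Dcc (ENSMUSG00000060534, chromosome 18), the attractive netrin receptor, stood at 561, 659 and 565 in the wild-type mice and at 588, 561 and 535 in the Top2b-low mice, overlapping groups with a log2 difference of −0.082 (SE 0.10, 95% interval −0.32 to 0.15). Unc5d (ENSMUSG00000063626, chromosome 8), a repulsive netrin receptor that also binds Flrt proteins in migrating cortical neurons, counted 1057, 1173 and 1112 against 1002, 1040.4 and 1006. Its groups did not overlap, by the narrow gap between 1057 and 1040.4, and the means of 1114 ± 58.2 and 1016 ± 21.1 (SD, n = 3 each) gave a log2 difference of −0.13 (SE 0.078, unadjusted p = 0.135). Unc5b counted 1249.8, 1166 and 717 against 1185, 1207 and 597, 4 values close together and the 2 N22 values far below (log2 difference −0.10, SE 0.32). Unc5a, the Unc5 gene with the highest mean count, and Unc5c differed by 0.028 and 0.0082.

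Because each genotype holds 1 N22 library, the genotype difference was also read separately outside N22, in 2 against 2 libraries, and within the N22 pair. The 2 sets share no library. Across the 67 genes Pearson's r between the differences in the 2 sets was 0.067, beside 0.07 across all tested genes, and 37 of the 67 had the same sign in both (background 51.1%). In 14 members the 4 libraries separated the genotypes and the N22 pair lay the same way, against 17.7% of all tested genes, or 20.9% of the members. The 6 on the higher side were Plxnd1, Robo2, Robo3, Epha4, Slit3 and Sema6b, and the 8 on the lower side Plxnb3, Sema3g, Slit2, Unc5d, Sema3c, Epha2, Ephb2 and Robo1. The shares are near the background in both directions (8.68% and 8.97%). These counts were chosen after the values had been seen.

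**Figure D4:**
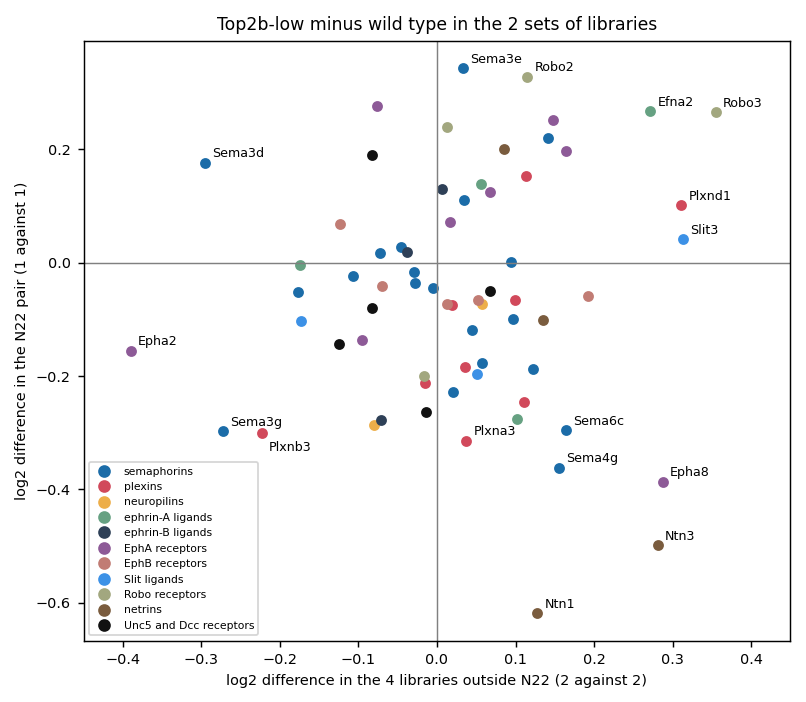
Log2 difference between Top2b-low and wild type in the 4 libraries outside N22 (x axis, 2 against 2) and in the N22 pair (y axis, 1 against 1, no replicate) for the 67 genes, 1 point per gene coloured by family. Points scatter over all 4 quadrants, and Ntn1 lies at 0.13 and −0.62.

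With an interaction term, whose spread comes only from the 4 libraries outside N22 since the N22 pair holds 1 library of each genotype, no member passed after adjustment (limma interaction term, background 0.023% of genes called, and 0 members by edgeR or DESeq2). At an unadjusted p under 0.05 the term left 6 members, Ntn1, Sema4g, Epha8, Plxnb2, Sema6c and Ntn3, with a background of 3.59%. In all 6 the N22 pair lay below the other libraries' difference. Ntn1 had the smallest p (interaction −0.75, SE 0.17, unadjusted p = 0.00195, adjusted p = 0.723). Epha8 stood at 402, 328 and 270.2 in the wild-type mice and at 443, 444 and 206 in the Top2b-low mice, a difference of 0.29 outside N22 and of −0.39 in the pair.

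Terms that absorb the N22 split brought no member past the threshold. With the N22 term limma left 7 members at an unadjusted p under 0.05 (background 5.81%) and with the replicate block 9 (background 6.72%), both with 0 after adjustment. Those with the N22 term were Robo3, Plxnd1, Plxnb3, Robo2, Epha4, Sema3g and Slit2. The block, which assumes that replicate numbers are pairs, added Plxna2 and Efnb3. DESeq2 with the N22 term called 14 of all genes (0.0805%) and with the block 15 (0.0863%), with 0 guidance genes among either.

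The largest differences among the guidance genes followed the library name. With genotype in the model, limma called 20 of the 67 between the N22 libraries and the other 4, 6 higher and 14 lower. That is 29.9% of the members against 28.0% of all tested genes (11.3% higher and 16.7% lower), so the share is near the background. The median was −0.10 for the members and −0.0046 for all tested genes.

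Among the ligands, Ntn1 was the lowest, at 332 and 216 in the N22 libraries and 615 to 726 in the others (log2 difference −1.31, SE 0.14, limma adjusted p = 0.000194). The transmembrane Sema6d averaged 1499 against 2613 (−0.80, SE 0.075, adjusted p = 6.73e-05), and Ntn4, Sema6a, Sema4g, Sema4d and Sema3a were lower too, with log2 differences of −0.69, −0.57, −0.37, −0.36 and −0.32. On the higher side stood Efna3 (0.42, SE 0.071), Slit1 (0.31, SE 0.10) and Ntn5 (0.77, SE 0.22). No neuropilin or ephrin-B gene was called, and the values of largest size in these families were −0.10 for Nrp2 and −0.24 for Efnb1.

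Of the receptors, Unc5b, a netrin receptor of vessels and neurons, averaged 657 normalised counts in the N22 libraries and 1202 in the others (−0.88, SE 0.077, adjusted p = 4.77e-05). Ephb2 (−0.83, SE 0.073, adjusted p = 4.88e-05), Epha2 (−1.07, SE 0.22), Epha8 (−0.76) and Plxnb2, a plexin required in cerebellar granule cell development (−0.60, SE 0.085), were lower with it, as were Unc5c (−0.30) and Plxnb1 (−0.20). Robo3 was the most different on the higher side, at 421 and 506 in the N22 libraries and 243 to 317 elsewhere (0.73, SE 0.088, adjusted p = 0.000334), followed by Ephb6 (0.47, SE 0.078) and Epha4 (0.28, SE 0.064). Beside these values stand the cell type markers: all 10 of the granule cell list, all 8 of the Purkinje cell list (median −3.31) and all 7 tested hindbrain markers were called lower in the N22 libraries, as were 6 of 10 astrocyte markers (median −0.34), 5 of 10 meningeal fibroblast markers (median −0.34), 5 of 10 endothelial and mural markers (median −0.29) and 4 of 8 thalamic markers (median −0.28). Called higher were 6 of 10 cortical and hippocampal markers (median 0.31), 4 of 8 striatal markers (median 0.21) and 1 of the 8 thalamic markers. In the oligodendrocyte, oligodendrocyte precursor, microglia and olfactory lists at most 3 markers were called in either direction. Their part in the guidance gene differences was not tested. A single library per genotype carries the N22 name, so the name cannot be told apart from the 2 animals and their libraries.

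**Figure D5:**
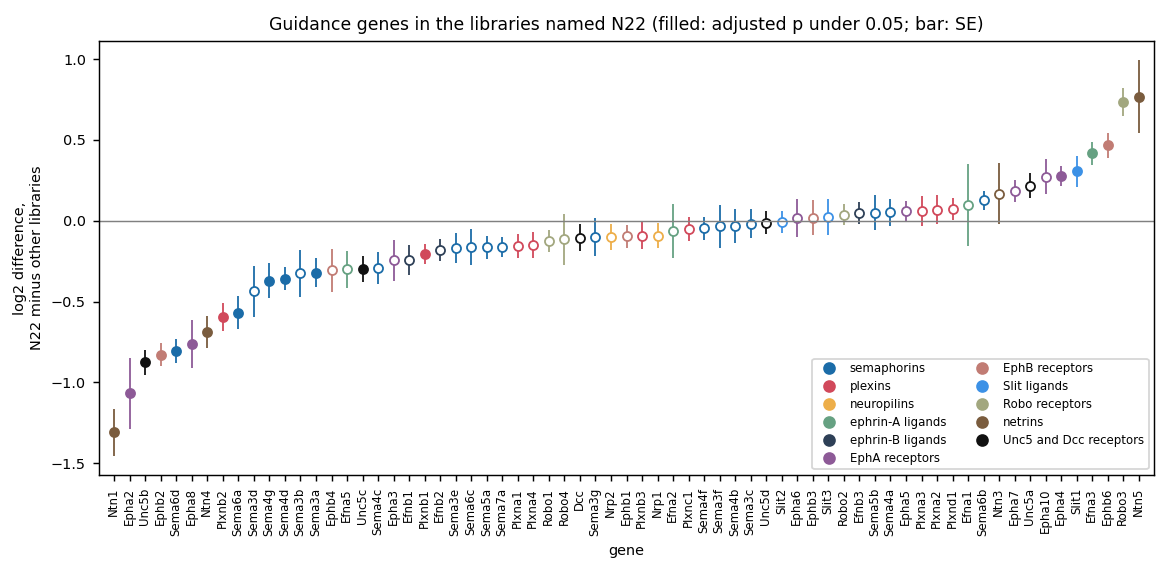
Log2 difference between the 2 libraries named N22 and the other 4 (y axis), with SE, for the 67 genes ordered by value (x axis) and coloured by family; filled points passed limma's test at an adjusted p under 0.05. The filled points number 20, from Ntn1 at −1.31 to Ntn5 at 0.77.

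The genes that act downstream of these receptors did not pass the test for genotype either. Of 45 effectors, among them the collapsin response mediators, the Mical and Srgap proteins and kinases, limma called 0, with 0 at an unadjusted p under 0.05. Of them 27 were on the higher and 18 on the lower side, with a median of 0.0076. The smallest p belonged to the Rac-activated kinase Pak3, which averaged 3123 ± 143 and 2808 ± 290.0 (SD, n = 3 each). Its log2 difference was −0.16 (SE 0.093, limma unadjusted p = 0.131). Next came the actin oxidase Mical2 (0.16), Dpysl5 (−0.16), a collapsin response mediator, and Limk1 (−0.14), which inactivates cofilin.

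Of 37 other cues, receptors and adhesion molecules of axon growth, 25 were on the higher and 12 on the lower side (median 0.04), again with 0 called and 0 at an unadjusted p under 0.05. With the N22 term, limma left 3 of these 37 and 3 of the 45 effectors at that level (background 5.81%), with 0 after adjustment. Lrrc4, a postsynaptic netrin-G ligand, averaged 1631 ± 101 and 1821 ± 93.9 (log2 difference 0.16, unadjusted p = 0.0937), and the Nogo receptor homologue Rtn4rl1 1089 ± 26.1 and 1191 ± 32.8 (0.13). The adhesion molecule Nrcam, a partner of Nrp2 in the response to semaphorins, averaged 6795 ± 441 and 7393 ± 234 (0.12), and the repulsive guidance molecule Rgmb 1578 ± 31.5 and 1452 ± 88.7 (−0.12). Rtn4rl1, Nrcam and the Dcc ligand Draxin did not overlap between genotypes on the higher side and Rgmb on the lower, 3 and 1 of 37 against the backgrounds of 2.7% and 3.04% of all tested genes. Both lists were chosen by function.

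Many guidance genes are long, and 32 of the 67 span over 100 kb of the genome in the GENCODE vM21 annotation, among them Dcc, Robo2 and Epha6. Their median log2 genotype difference was −0.02, and that of the 35 shorter members −0.01. Over all tested genes the medians were 0.019 for 2377 long and −0.0073 for 14138 shorter genes. The members with the smallest p fell in both classes: Robo2 and Slit2 are long, and Plxnd1, Plxnb3 and Sema3g are shorter.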

How the data were processed

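Whole-number counts were recovered from the 1 deposited table. It holds the authors' normalised counts (signal), which they had divided by 1 factor per library (0.798 to 1.69): 100% of values were whole multiples of the library's smallest value above 0 (tolerance 1e-06 reads). Per the submitters' processing notes, RSEM and mm39 were used; versions, aligner, gene models and use of strand were not given in the sources used here. The floor of 3 reads lay at 1.77 to 3.76 normalised counts, by library. Gene symbols came from GENCODE vM21, on another build (GRCm38), so no coordinates are given.

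Log2(normalised count + 1) was compared for 17391 genes (mean 10 or more) with limma 3.58.1, two-sided and with an intensity trend, under R 4.3.3. P-values were adjusted by Benjamini and Hochberg's method across these genes, at 0.05. This scale understates differences of low genes. Replicates were treated as animals, since the series text gives mice per genotype. Alternatives were edgeR 4.0.16 (quasi-likelihood), DESeq2 1.42.0, an N22 term, the replicate block and others given at the end. Same-numbered libraries correlated in their deviations from group means at 0.33, 0.35 and 0.68, all above 0.1. Differently numbered libraries outside N22 also did, wild type replicate 1 with Top2b-low replicate 2 at 0.37. Wild type replicate 2 and Top2b-low replicate 1 correlated at 0.24. Between an N22 library and one outside N22 the values ran from −0.52 to −0.40. These values follow the N22 split and cannot show that replicates 1 and 2 are pairs, so the replicate block remains an assumption. The fits were tested on simulated counts that held no N22 split and larger changes than any member's estimate. That run therefore does not bear on small differences in these data. Members, lists and tests were chosen with earlier results of these data known. The genes named were Top2b, members called for genotype in any fit, members with non-overlapping groups, per family those with the smallest p, highest mean, largest N22 difference or nearest the filter, and 4 genes per pathway list; others were chosen after their values were seen.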

Additional observations from a re-analysis of the deposited data

How the results depend on the processing

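The count of 0 guidance genes called for genotype, and of 0 effectors and other cues, held in all 23 alternatives with a test, among them the replicate block (0) and the N22 term (0). The median genotype difference of the members stayed between −0.059 and 0.038 (−0.052 to 0.038 with single libraries left out). Plxnd1, Plxnb3, Robo2, Robo3, Sema3g, Slit2, Unc5d, Epha4, Epha6, Sema3c, Efna2, Efnb3, Nrp2 and Dcc kept their sign in all 24 alternatives, but not their size. Some of these could not turn a sign: limma's N22 term, its replicate block and dropping its trend gave the same estimates as the main fit. Where the groups did not overlap (Plxnd1, Plxnb3, Robo2, Sema3g, Slit2 and Unc5d), leaving out or splitting libraries could not turn the sign. With single libraries left out the log2 difference ranged from 0.20 to 0.30 for Plxnd1, −0.32 to −0.21 for Plxnb3, 0.14 to 0.22 for Robo2, 0.10 to 0.59 for Robo3, −0.36 to −0.24 for Sema3g, −0.16 to −0.12 for Slit2, −0.17 to −0.094 for Unc5d, 0.077 to 0.26 for Epha4, 0.075 to 0.30 for Epha6, −0.19 to −0.054 for Sema3c, 0.16 to 0.40 for Efna2, −0.18 to −0.09 for Efnb3, −0.23 to −0.082 for Nrp2 and −0.12 to −0.0061 for Dcc. The sign turned for Ntn1 (0.13 outside N22, 0.0029 with DESeq2, 0.017 with array weights) and, in the N22 pair, for Ephb3 (−0.059) and Ephb4 (0.068). Left-out libraries gave ranges of −0.43 to 0.44 for Ntn1, −0.15 to 0.38 for Ntn5, −0.25 to 0.037 for Efna5 and −0.19 to 0.022 for Ephb4. Top2b passed the threshold with DESeq2 and the N22 term (−0.42, adjusted p = 4.88e-05) or the replicate block (−0.42, adjusted p = 0.000785), and not in the other alternatives. The 20 guidance genes called for the N22 name became 10 without limma's intensity trend and 16 to 20 with single libraries left out. The count of 0 members whose genotype difference differed by N22 held in its 9 alternatives. Slit1 lost its N22 call in 4 alternatives; the cause was not tested. Leaving out either replicate 3 lets the N22 difference enter the genotype difference. Ntn1, Epha2, Ntn5 and Unc5b had the widest 95% intervals, and small differences in them were not detectable with 3 mice per group.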
